A study of Mus musculus with 9 samples.

Results

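The smooth muscle genes of the peritubular wall were examined in acRIP-seq libraries of mouse testis. The acRIP-seq method captures poly(A) RNA with an antibody to N4-acetylcytidine (ac4C), an acetylated form of cytidine, and sequences what is captured. The 8 genes were Acta2, Actg2, Myh11, Myl9, Tpm2, Cnn1, Tagln and Des. They were chosen by name, as genes of contractile smooth muscle, out of the 55401 genes in the count table. Earlier results of these data were known at that time. Each gene was found in the table by its Ensembl identifier. The table held 3 libraries of unprecipitated RNA (input), 3 from beads with a control rabbit immunoglobulin (IgG) and 3 from beads with the ac4C antibody (acRIP). All 9 came from testes of wild-type males, and the methods name ICR mice. Their age is not given in the sources used here. The RNA was spiked with a β-globin probe that carried ac4C, and the cDNA was amplified by the Smart-seq2 method. No source says whether the libraries of a group were separate precipitations, so p-values measure the spread between these libraries, which may be technical.

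Seminiferous tubules are wrapped in flat peritubular myoid cells, which contract and move sperm towards the rete testis. Contraction in smooth muscle works by sliding of actin filaments along myosin, switched on when the regulatory light chain of myosin is phosphorylated. Calponin, transgelin and tropomyosin lie along the actin filament, and desmin forms intermediate filaments that link the contractile apparatus to the cell membrane. Vascular smooth muscle and pericytes carry many of the same proteins, and the γ-actin gene Actg2 is also known to be transcribed in haploid male germ cells. In whole-testis RNA, fewer cells of a type and less RNA per cell cannot be told apart.

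The 2 actins are Acta2, smooth muscle α-actin, and Actg2, smooth muscle γ-actin. Acta2 (ENSMUSG00000035783.9) lies on chromosome 19 from 34241090 to 34255590 on the minus strand of mm10, and its exons cover 2196 bases. Actg2 (ENSMUSG00000059430.14) lies on chromosome 6 from 83512905 to 83536265 on the minus strand, with 1557 exon bases. Myh11 (ENSMUSG00000018830.10), the smooth muscle myosin heavy chain, lies on chromosome 16 from 14194535 to 14291372 on the minus strand, with 7599 exon bases. Myl9 (ENSMUSG00000067818.6), a myosin regulatory light chain, lies on chromosome 2 from 156775420 to 156781658 on the plus strand, with 1162 exon bases. Tpm2 (ENSMUSG00000028464.16), β-tropomyosin, lies on chromosome 4 from 43514711 to 43523765 on the minus strand, with 2909 exon bases. Cnn1 (ENSMUSG00000001349.5), calponin, lies on chromosome 9 from 22099216 to 22109630 on the plus strand, with 2736 exon bases. Tagln (ENSMUSG00000032085.5), transgelin or SM22, lies on the same chromosome from 45929619 to 45936058 on the minus strand, with 1988 exon bases. Des (ENSMUSG00000026208.9), desmin, lies on chromosome 1 from 75360329 to 75368579 on the plus strand, with 3754 exon bases. Only Tagln and Des shared exon bases with other genes in the table. Tagln shared 1349 bases (67.9% of its length), of which 1241 were shared with the antisense gene Gm48529 and 108 with the end of Pcsk7. Des shared 220 bases (5.86%) with the antisense gene Gm15179. The Smart-seq2 method does not mark the strand of the RNA, so reads on bases shared with an antisense gene cannot be assigned to either gene by strand.

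The study names a cytidine-rich motif, TCCCAGCT in DNA letters, from its acRIP peaks in human cells and a related motif from testis. The longest protein-coding transcript of each gene was searched, on the transcribed strand, for TCCCAGCT and for CCNCAGNNC, a looser form of the testis motif. TCCCAGCT was found in 3 of the 8 transcripts (Myh11, Myl9 and Tagln) and in 13.5% of the 15526 protein-coding transcripts of tested genes. The matches (mm10) are shown with their flanks because they are the places in these transcripts where the named motif occurs, with the motif in capitals.
Myh11, exon 9, coding sequence, chr16:14239462-14239489, minus strand: tttgtgcccaTCCCAGCTgcacaagatg
Myh11, exon 29, coding sequence, chr16:14208235-14208262, minus strand: ttcccttggaTCCCAGCTtcaggacacc
Myl9, exon 4, 3′ UTR, chr2:156781243-156781270, plus strand: cgaattagggTCCCAGCTcccagggccg
Tagln, exon 5, 3′ UTR, chr9:45930167-45930194, minus strand: tggcccctgtTCCCAGCTgtacccccac
The Tagln match lay within the bases shared with Gm48529. CCNCAGNNC was found in 7 of the 8 transcripts, all but that of Acta2, and in 71.8% of all transcripts. It occurred 3 times each in Actg2, Myh11 and Tagln. The cytidine content of the 8 transcripts ranged from 23.8% in Myh11 to 29.7% in Myl9, with a median of 24.5% over all transcripts. A match is a description of the sequence and not a measured ac4C site.

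Many smooth muscle genes carry a CArG box near their start, the sequence bound by serum response factor. The RefSeq promoter table (GRCm38.p6, 250 bases before to 50 bases after the start) had entries for 5 of the 8 genes, namely Acta2, Cnn1, Des, Myl9 and Tpm2. A CArG box, defined as CC, 6 bases of A or T, and GG on either strand, was found in 1 of these 5 windows and in 1.63% of the 32851 promoters in the table. The match is printed because it is the only one in these windows, and capitals mark the box, which starts at -161 relative to the RefSeq start of the gene (156775464) and at -117 relative to the start in the count table.
Myl9 promoter, chr2:156775293-156775322, plus strand: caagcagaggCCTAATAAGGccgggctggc
The absence of a match in the other 4 windows says only that these letters are not in them.

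Library totals were 22023925 to 31340090 counts in input, 14647542 to 18786779 in IgG and 16025779 to 18639134 in acRIP. Genes with counts numbered 28552 to 29642 per library in input, 26204 to 26874 in IgG and 22206 to 22402 in acRIP. Fewer genes were thus detected in acRIP than in IgG, although the acRIP totals lay within the range of the IgG totals. Whether this difference contributed to high or absent counts of low-count genes in acRIP was not tested. Between 81.9% and 84.3% of counts from 1 to 20 were even, as when both mates of a pair are counted, so low counts rest on fewer fragments than they show. Levels are given as FPKM, the count scaled to the gene length and to the library total.

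Per length, the 8 genes had widely different levels in the input RNA, and Actg2 alone made up most of their summed level. Actg2 stood at 295.2 ± 8.36 FPKM in input (SD, n = 3), rank 267 among the 22510 tested genes, and Myl9 at 49.8 ± 2.30, rank 1790. Acta2 followed at 13.9 ± 0.430 FPKM, rank 4634. The other genes were low, with 1.76 ± 0.300 FPKM for Tpm2, 1.73 ± 0.0621 for Cnn1, 0.816 ± 0.0856 for Myh11, 0.613 ± 0.203 for Des and 0.129 ± 0.0351 for Tagln over its full exon length. If the counts of Tagln came only from the 639 exon bases it shares with no gene, its level in input would be 0.402 FPKM. Tpm2 and Cnn1 overlapped between libraries, as did Myh11 and Des, and the other neighbours in this order did not on full exon lengths. Actg2 took 81.1% of the summed FPKM of the 8 genes in input, 69.1% in IgG and 78.5% in acRIP.

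The label was checked against these levels. The genes most restricted to differentiated smooth muscle, Myh11 and Cnn1, were detected in all 9 libraries, but at low levels, and Tagln, an abundant transcript of contractile smooth muscle, was near the lower end of all tested genes in input (rank 21012 on its full exon length). Actg2 was 21.3 times Acta2 per length in input. The counts do not show in which cells these transcripts were made, and the share of Actg2 that came from myoid cells was not tested. Germ cell transcripts were far more abundant, with a summed level of the 8 germ cell markers of 26560 to 30440 FPKM per input library. Marker genes of pericytes and other mural cells, which share the smooth muscle genes, summed to 6.11 to 7.68 FPKM per input library over 9 genes.

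**Figure D1:**
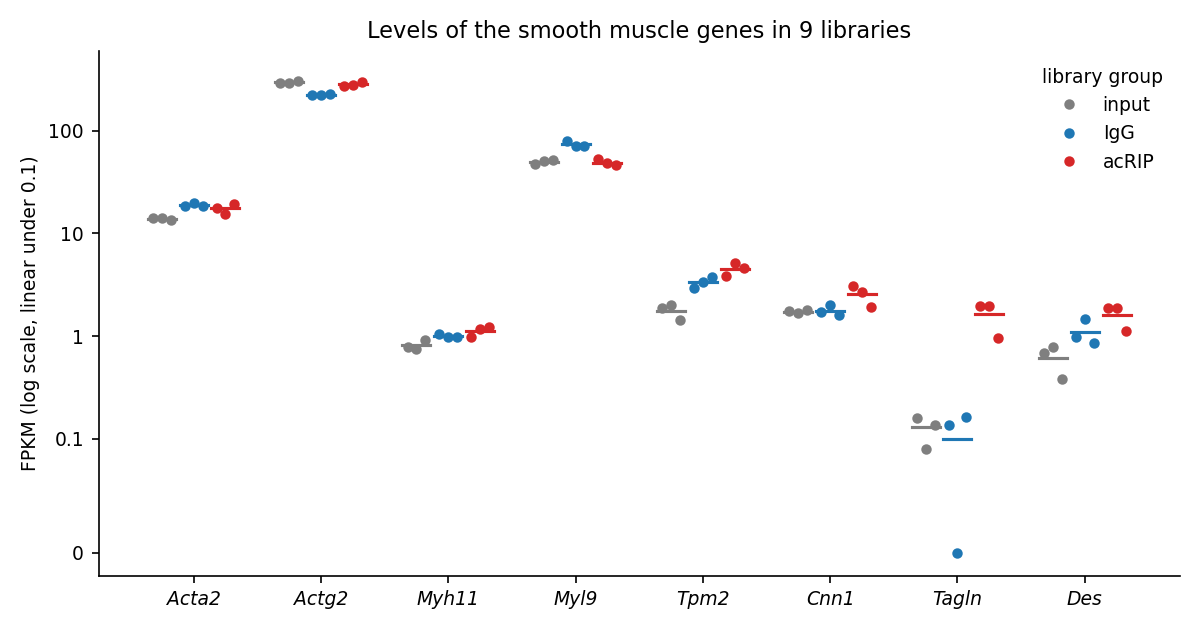
Level of each smooth muscle gene in each library, in FPKM on an axis that is logarithmic above 0.1 and linear below it, with points for libraries and lines for group means. Actg2 lies above 200 FPKM in all 9 libraries, and Tagln is the only gene whose acRIP libraries all lie more than 5 times above every input and IgG library.

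Comparing acRIP with IgG asks which transcripts the ac4C antibody recovered beyond a control antibody. Cnn1, Tagln, Actg2 and Tpm2 rose in acRIP over IgG, Myl9 fell, and Acta2, Myh11 and Des did not pass the test. Passing meant an adjusted p under 0.05 in edgeR's quasi-likelihood test over the 22510 tested genes, so 4 of 8 passed higher and 1 of 8 lower, against 26.4% and 37.6% of tested genes. With a fold change over 2 required as well, 1 of 8 was called higher and 0 lower, against 11.5% and 20.9%. DESeq2 gave the same counts, and 1 of the 8 was lower at an unadjusted p under 0.05. The gene called higher, Tagln, passed the filter on low counts only through its acRIP libraries, so that it had to be higher there to be tested, while the other 7 were above the filter limit in all 9 libraries. The median log2 fold change of the 8 genes was 0.43, and that of all tested genes was -0.09. A separate fit, limited to the 16047 genes whose count was 10 or more in each of the 9 libraries, left Tagln out. It called 1200 genes higher and 1427 lower over IgG, with a median of -0.03. Among all 22510 tested genes these numbers were 2590 and 4701, so much of the excess of lower calls lay in genes with low counts. Of the 7 smooth muscle genes in the separate fit, 0 were called higher and 0 lower.

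Comparing acRIP with input asks which transcripts made up a larger share of the recovered RNA than of the starting RNA. Acta2, Myh11, Cnn1, Tagln, Des and Tpm2 rose, and Myl9 and Actg2 did not pass the test. That was 6 of 8 higher and 0 lower, against 32% and 40.3% of tested genes, and 3 of 8 (Tagln, Des and Tpm2) were called higher with a fold over 2, against 17.7%. Here too Tagln was in the test only through its acRIP libraries. None was called lower by edgeR or DESeq2, against 22.9%, and none was lower at an unadjusted p under 0.05. The median log2 fold change was 0.60 for the 8 genes and -0.10 for all tested genes. The separate fit of 16047 genes called 2495 higher and 1852 lower, with a median of 0.01.

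Comparing IgG with input gives the difference between the control precipitate and the starting RNA, in which the precipitation and the amount of RNA put into a library, not quantified for precipitates, cannot be told apart. Acta2, Des, Myl9 and Tpm2 rose in IgG over input and Actg2 fell, so 4 of 8 passed higher and 1 of 8 lower, against 25.9% and 26% of tested genes. None of the 8 was called with a fold over 2 by edgeR or DESeq2, against 13.5% of tested genes called higher and 7.22% called lower, although 5 had an adjusted p under 0.05, and the same number an unadjusted p under 0.05. The median log2 fold change was 0.40 for the 8 genes and -0.01 for all tested genes. The separate fit of 16047 genes called 1906 higher and 611 lower, with a median of -0.003. The 3 comparisons share libraries, so their values are given side by side and not as independent support of each other.

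**Figure D2:**
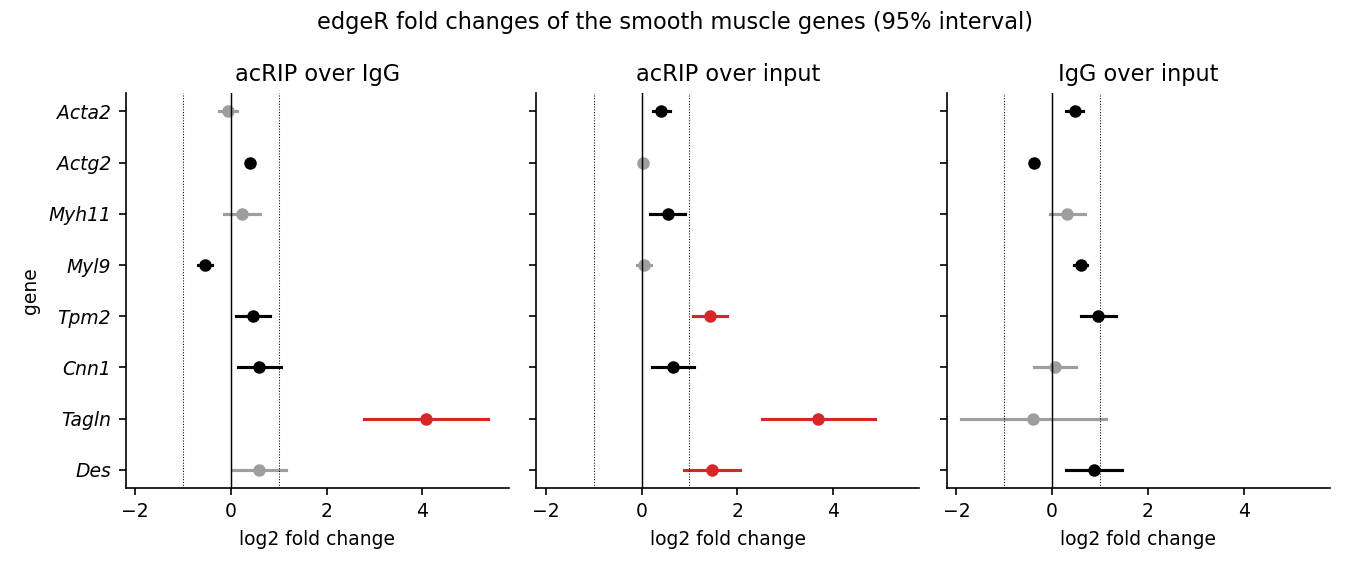
Log2 fold changes (x axis) of the 8 genes in the 3 comparisons, with 95% intervals from edgeR. Grey points did not pass adjusted p 0.05, black points passed, red points also exceeded 2-fold (dotted lines). Tagln stands at 4.08 over IgG and 3.69 over input, and the other 7 genes lie between -0.54 and 1.47 in these comparisons.

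The actins moved differently. Acta2 had 972, 685 and 653 counts in the input libraries, 589, 819 and 753 in IgG, and 623, 632 and 714 in acRIP. Scaled to TMM library sizes, its acRIP libraries lay above all input libraries and overlapped the IgG libraries. Its level was 18.9 ± 0.855 FPKM in IgG and 17.5 ± 1.98 in acRIP. The log2 fold change of Acta2 was 0.41 over input (standard error 0.09, edgeR adjusted p 0.000118) and -0.06 over IgG (adjusted p 0.561), with a 95% interval over IgG from -0.24 to 0.12. In IgG over input it was 0.47 (adjusted p 2.96e-05).

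Actg2 had 14068, 10039 and 10521 counts in input, 5070, 6438 and 6531 in IgG, and 6785, 8167 and 7784 in acRIP. Its IgG libraries lay below all others, and its acRIP and input libraries overlapped. Its level was 222.7 ± 2.76 FPKM in IgG and 283.8 ± 13.2 in acRIP. Over IgG its log2 fold change was 0.40 (standard error 0.04, edgeR adjusted p 4.05e-10), over input it was 0.02 (95% interval from -0.06 to 0.10, adjusted p 0.601), and in IgG over input it fell by 0.38 (adjusted p 6.44e-10). Actg2 was thus higher in acRIP than in IgG without passing over input. The amounts of RNA put into the precipitate libraries were not quantified, so these values do not show which precipitate changed.

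The myosin subunits are the motor of contraction and its switch. Myh11 had 186, 126 and 154 counts in input, 116, 139 and 138 in IgG, and 118, 166 and 157 in acRIP. It rose over input by a log2 fold change of 0.55 (standard error 0.18, edgeR adjusted p 0.00801), with 3 of 3 acRIP libraries above all input libraries. Over IgG the value was 0.22 (adjusted p 0.289, 95% interval from -0.15 to 0.60), and the libraries overlapped.

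Myl9 had 1720, 1287 and 1334 counts in input, 1341, 1535 and 1545 in IgG, and 977, 1044 and 894 in acRIP. It was highest in IgG, at 73.5 ± 4.59 FPKM, and its 3 acRIP libraries lay below all 3 IgG libraries. Over IgG, Myl9 fell by 0.54 on the log2 scale (standard error 0.07, edgeR adjusted p 7.65e-08), and in IgG over input it rose by 0.59 (adjusted p 6.02e-09). Against input the acRIP value was 0.05 (95% interval from -0.09 to 0.20, adjusted p 0.488). Myl9 was the only gene of the 8 to fall over IgG.

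The proteins bound along the actin filament were encoded by Tpm2, Cnn1 and Tagln. Tpm2 had 170, 128 and 92 counts in input, 126, 184 and 204 in IgG, and 178, 278 and 222 in acRIP. Its groups did not overlap in any of the 3 comparisons once scaled to library size, with input lowest and acRIP highest. Its log2 fold change was 1.43 over input (2.69-fold, standard error 0.18, edgeR adjusted p 1.92e-08), 0.47 over IgG (standard error 0.17, adjusted p 0.0195) and 0.96 in IgG over input (adjusted p 3.4e-05). The rise over IgG did not pass without IgG replicate 1 (adjusted p 0.0832) or without acRIP replicate 2 (adjusted p 0.11).

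Cnn1 had 150, 100 and 108 counts in input, 68, 102 and 82 in IgG, and 136, 138 and 88 in acRIP. Its acRIP replicate 3 was the lowest of its group and lay within the range of the IgG libraries. Its rise over IgG was 0.59 on the log2 scale (standard error 0.22, edgeR adjusted p 0.0191), beside 0.65 against input (adjusted p 0.00745). Over IgG it did not pass without IgG replicate 3 (adjusted p 0.0633), acRIP replicate 1 (0.109) or acRIP replicate 2 (0.0523), and over input it did not pass without acRIP replicate 1 (0.0555). In IgG over input the value was 0.06 (adjusted p 0.841).

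Tagln had 10, 4 and 6 counts in input, 4, 0 and 6 in IgG, and 63, 73 and 32 in acRIP. Every acRIP library lay above every other library. Its rise over IgG was 4.08 on the log2 scale (16.9-fold, standard error 0.63, edgeR adjusted p 1.87e-06) and that over input 3.69 (12.9-fold, standard error 0.58, adjusted p 1.35e-06). Over IgG the value ranged from 3.47 to 4.71 when any 1 library was left out, which is a description, since Tagln was tested only through its acRIP libraries. The antisense gene Gm48529, which lies between 45930112 and 45933738 on the plus strand of chromosome 9 and overlaps the 3′ part of Tagln, had 14, 0 and 6 counts in input, 10, 2 and 11 in IgG, and 69, 53 and 73 in acRIP. It rose beside Tagln, with log2 fold changes of 3.12 over IgG (standard error 0.58, adjusted p 2.3e-05) and 3.96 over input (adjusted p 5.46e-07), while Pcsk7 stood at 0.02 over IgG (adjusted p 0.937). Gm48529 too would not have met the filter on low counts without its acRIP libraries, so its rise is a description. The counting tool by default leaves out reads that overlap more than 1 gene. If the counts of Tagln came only from the 639 bases it shares with no gene, its mean level would be 5.09 FPKM in acRIP, 0.402 in input and 0.311 in IgG. Which of the overlapping transcripts gave the reads was not tested.

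**Figure D3:**
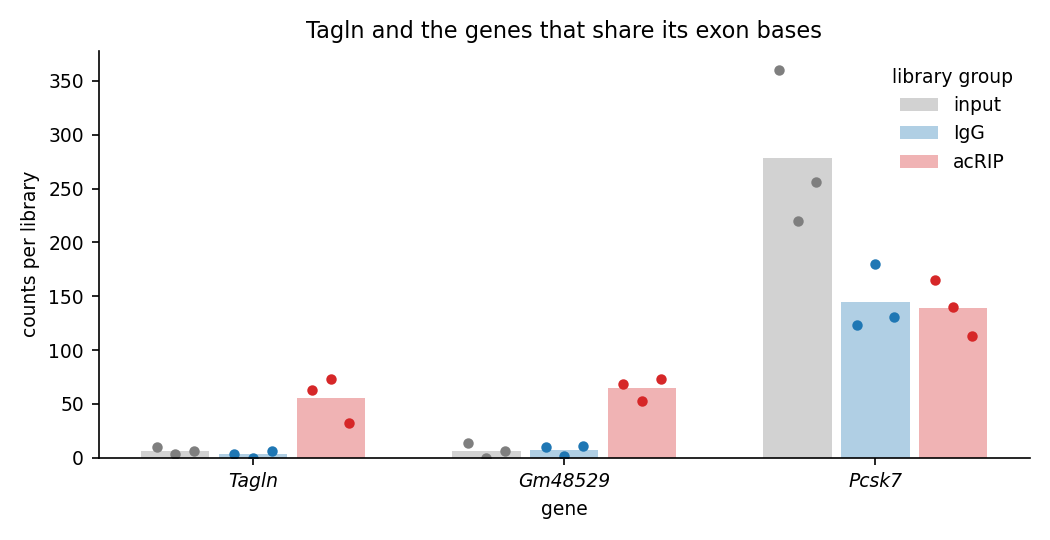
Counts per library (points) and group means (bars) of Tagln and of the 2 genes that share its exon bases. Tagln and Gm48529 have 32 to 73 counts in each acRIP library and at most 14 in any other library, whereas Pcsk7 is highest in input.

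Desmin is the intermediate filament protein of muscle. Des had 80, 64 and 32 counts in input, 54, 104 and 60 in IgG, and 112, 130 and 70 in acRIP. Its acRIP libraries lay above all input libraries but overlapped the IgG libraries, and input replicate 3 was the lowest. The log2 fold change was 1.47 over input (2.77-fold, standard error 0.28, edgeR adjusted p 3.34e-05) and 0.88 in IgG over input (adjusted p 0.0117), which did not pass without input replicate 3 (0.0828) or IgG replicate 2 (0.124). Over IgG it was 0.59 (standard error 0.28, adjusted p 0.064), and this value passed in 8 of the 19 other settings tried. The antisense gene Gm15179, which shares 220 bases with Des, had 13, 30 and 16 counts in acRIP and at most 12 in any other library.

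Ratios within a library do not depend on how libraries are scaled, so each gene was also set against Acta2 in the same library. Acta2 itself rose over input by 0.47 in IgG and 0.41 in acRIP on the log2 scale, so a ratio can move through either gene. The ratios all share Acta2, so their tests are not independent. The 7 ratios were tested across the 3 groups by an exact permutation test with 1680 assignments, whose smallest p is 0.00357, and p-values were adjusted over the 7. Actg2 had 15.1 ± 0.898 counts per Acta2 count in input, 8.38 ± 0.451 in IgG and 11.6 ± 1.17 in acRIP (n = 3 each, exact p 0.00357, adjusted 0.0125). The 3 groups of this ratio did not overlap. Tpm2 had 0.168 ± 0.0239 counts per Acta2 count in input, 0.236 ± 0.0303 in IgG and 0.345 ± 0.0827 in acRIP (exact p 0.00357, adjusted 0.0125), again with no overlap. The Myl9 ratio was lowest in acRIP, at 1.49 ± 0.211 against 1.90 ± 0.138 in input and 2.07 ± 0.202 in IgG (exact p 0.0107, adjusted 0.025). The Tagln ratio differed as well (exact p 0.0143, adjusted 0.025). It is given as a description, since Tagln was above the filter limit only in its acRIP libraries and had 0 counts in IgG replicate 2. The ratios of Des (exact p 0.0607, adjusted 0.085), Cnn1 (exact p 0.0964, adjusted 0.113) and Myh11 (exact p 0.279, adjusted 0.279) did not pass.

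**Figure D4:**
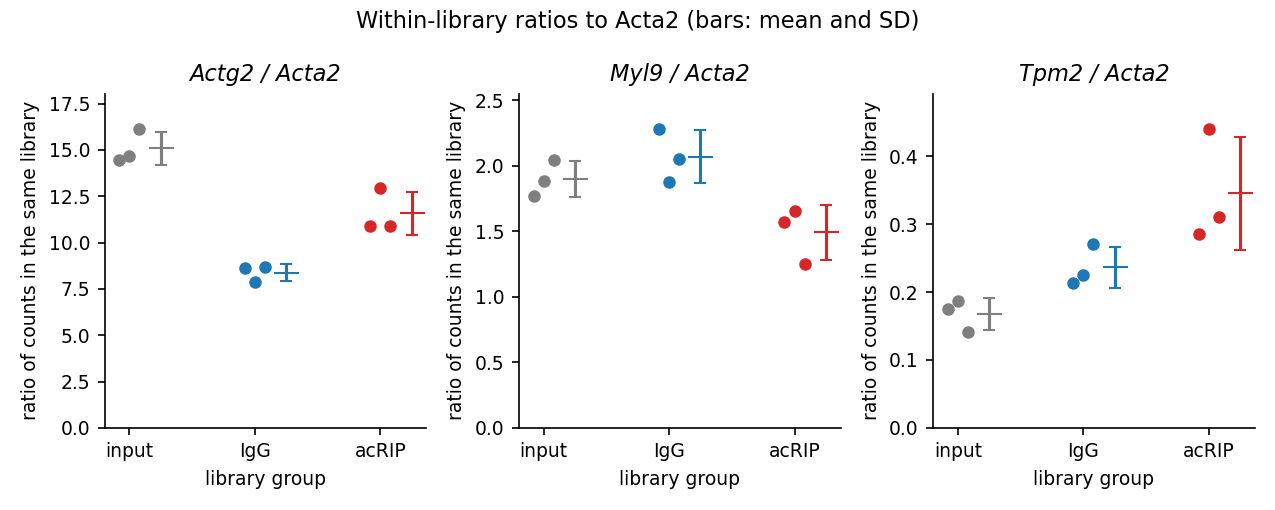
Counts of Actg2, Myl9 and Tpm2 divided by those of Acta2 in the same library, with points for libraries and bars for the mean and SD of 3 libraries. The Actg2 ratio is 15.1 in input and 8.38 in IgG, while the Tpm2 ratio is 0.168 in input and 0.345 in acRIP.

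Over the 9 libraries, Pearson correlations of log2 CPM with Acta2 were 0.80 for Tpm2, 0.68 for Myh11, 0.68 for Des, 0.56 for Myl9, 0.28 for Cnn1, 0.16 for Tagln and -0.51 for Actg2. These are descriptions over libraries that fall into 3 groups. The genes outside the lists whose pattern was most like that of Acta2 were Henmt1 (0.991), Plxnc1 (0.980), Plekhf2 (0.979), Gm11240 (0.978) and Nlk (0.977). For the mean of the 8 genes they were 1700097N02Rik, Spink2 and Gm26654 (0.989 each), and Fam24a and Rfx3 (0.987 each). Tagln, from 0.10 to 4.18 CPM, varied most of the 8 on the log2 scale and so weighed most in this mean.

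Most of the 8 genes have non-muscle paralogs, which make the same kinds of protein in other cells, and these were compared gene by gene. Of 18 such cytoskeletal genes, 16 were tested, and 3 passed higher and 5 lower in acRIP over IgG, where 26.4% and 37.6% of all tested genes did. Among the actins, the cytoplasmic β-actin gene Actb had a level of 252.0 ± 3.74 FPKM in input, 240.5 ± 2.95 in IgG and 236.6 ± 8.03 in acRIP, so Actg2 exceeded it in input and acRIP and lay below it in IgG. The log2 fold change of Actb over IgG was 0.03 (adjusted p 0.54). The cytoplasmic γ-actin gene Actg1 fell by 0.45 over IgG (adjusted p 5.13e-07) and rose by 0.37 over input (adjusted p 6.56e-06). The striated muscle actins Acta1 and Actc1 had at most 14 counts in any library.

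Transgelin-2, encoded by Tagln2, stood at 4.60 ± 0.354 FPKM in input, 1.81 ± 0.125 in IgG and 6.89 ± 0.430 in acRIP, where Tagln had 1.64 FPKM on its full exon length and 5.09 if only unshared bases were counted. Tagln2 was called higher over IgG, with a log2 fold change of 1.98 (standard error 0.17, adjusted p 4.51e-11), and rose over input by 0.66 (adjusted p 0.000374). In IgG over input Tagln2 was called lower, at -1.32 (adjusted p 1.01e-07). Tagln stood at -0.39 in that comparison (adjusted p 0.69), with a 95% interval from -1.91 to 1.13. That interval contains the Tagln2 value, and the difference between these genes was not tested. The other calponins did not rise over IgG as Cnn1 did, with -0.77 for Cnn2 (adjusted p 0.0179) and 0.13 for Cnn3 (adjusted p 0.64), and these differences from Cnn1 were not tested.

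The other tropomyosins had log2 fold changes over IgG of -0.002 for Tpm1 (adjusted p 0.989), 0.02 for Tpm3 (adjusted p 0.846) and -0.58 for Tpm4 (adjusted p 0.0143), beside 0.47 for Tpm2. The myosin light chain genes gave 0.40 for Myl6 (adjusted p 1.83e-05), 0.22 for Myl12a (adjusted p 0.0515) and 0.45 for Myl12b (adjusted p 0.205), beside -0.54 for Myl9. The non-muscle heavy chains gave 0.52 for Myh9 (adjusted p 0.143), 0.31 for Myh10 (adjusted p 0.0106) and -1.10 for Myh14 (adjusted p 0.0444), beside 0.22 for Myh11. Vimentin, the intermediate filament gene of mesenchymal cells, fell by 0.51 over IgG (adjusted p 0.000118), whereas Des did not pass.

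Other genes of smooth muscle were taken as lists of their roles. Of 23 contractile companions, such as the light chain kinase and adhesion proteins, 5 passed higher and 10 lower over IgG (26.4% and 37.6% of all tested genes), with a median log2 fold change of -0.07. The most abundant in input were Hspb6, a small heat shock protein, at 9.35 FPKM (-0.23 over IgG, adjusted p 0.107), and Ppp1r14a, an inhibitor of myosin phosphatase, at 3.47 FPKM (0.16 over IgG with an adjusted p of 0.497, and 0.98 against input with an adjusted p of 6.56e-05). Lmod1, Synpo2, Itga8 and Ldb3 had 0 counts in all 3 acRIP libraries, which allows up to 3 read pairs, or 6 counts if both mates were counted, in each, and they are named for that after their values were seen. Such absence was not particular to the companions, since 1 gene of contraction signalling and 1 mural cell marker were at 0 in acRIP too. Of 9 transcription regulators, 4 passed higher and 2 lower over IgG. The most abundant of these were Fhl2, a LIM-domain cofactor, which fell by 0.48 (adjusted p 0.0159), and Srf, serum response factor, at 0.06 (adjusted p 0.671). Of 15 tested genes of contraction signalling, 7 passed higher and 5 lower over IgG. The most abundant were the small GTPase gene Rhoa, which fell by 0.40 (adjusted p 5.95e-06), and the angiotensin receptor gene Agtr1a, at 0.05 (adjusted p 0.816).

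Of 8 tested genes known from peritubular cells outside contraction, such as secreted factors, 4 passed higher and 2 lower over IgG. Their median log2 fold change was 0.54. Over all tested genes, 26.4% passed higher and 37.6% lower in this comparison, with a median of -0.09. Cxcl12, a chemokine, rose by 0.87 (adjusted p 6.07e-08). Of 9 markers of mural cells, which share smooth muscle genes, 1 passed higher and 5 lower over IgG. The most abundant were Rgs5, a regulator of G-protein signalling, which fell by 0.46 (adjusted p 0.0391), and Higd1b, at -0.21 (adjusted p 0.594). The summed level of the mural markers was 9.53 to 10.3 FPKM in IgG and 5.08 to 5.69 in acRIP. Skeletal muscle markers, which share tropomyosin and desmin with the list, summed to 1.47 to 2.37 FPKM in IgG and 2.46 to 3.38 in acRIP, with Tnnt3 and Tnnc2 at 0 in all 9 libraries. Of 3 tested skeletal muscle genes, 2 passed higher and 0 lower over IgG, and the most abundant in input were Mylpf, a fast-muscle light chain (1.61 over IgG, adjusted p 0.00732), and Actn3 (0.20, adjusted p 0.628). Epididymal markers summed to 9.32 to 10.4 FPKM in IgG and 20.9 to 22.2 in acRIP, where Rnase10 rose over IgG by 1.73 (adjusted p 1.91e-12) and Crisp1 fell by 3.74 (adjusted p 1.5e-06), the only 2 of 3 tested genes to pass. The part of these cell types in the values of the 8 genes was not tested.

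**Figure D5:**
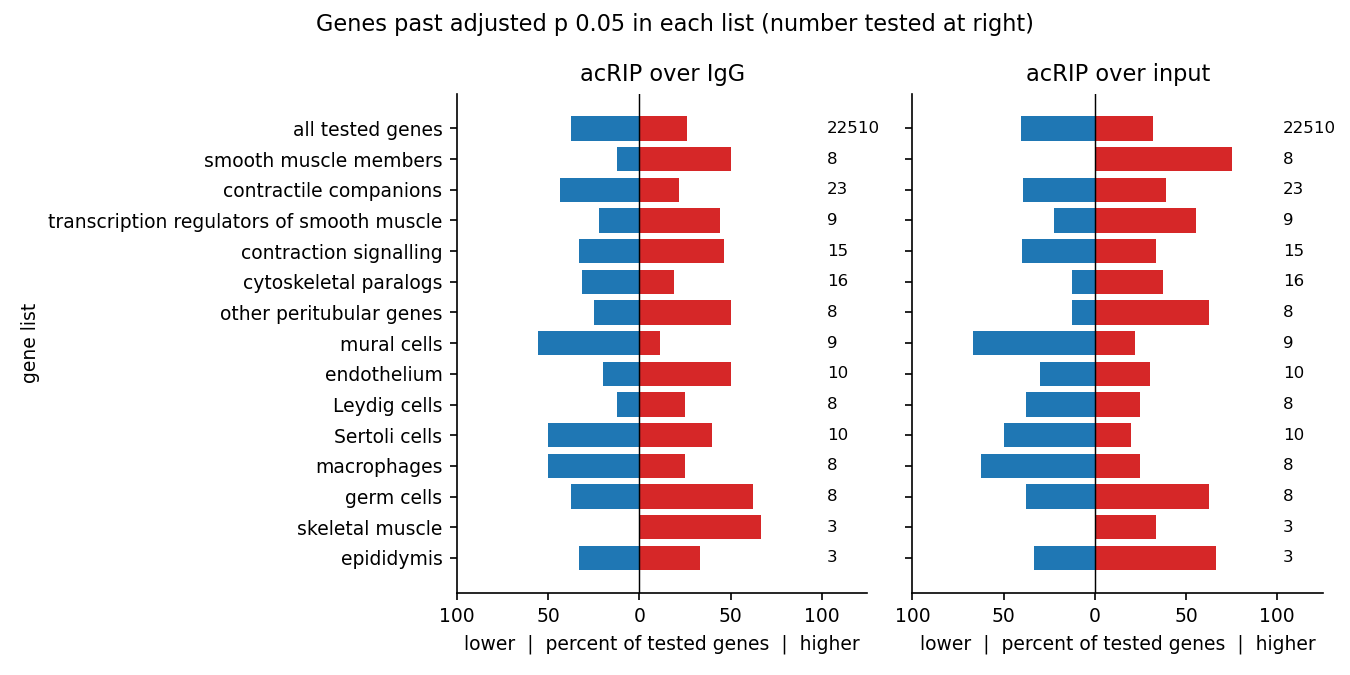
Percent of the tested genes of each list with adjusted p under 0.05 in acRIP over IgG (left) and over input (right), higher in red and lower in blue, with the number tested at the right of each bar. The smooth muscle genes have 4 higher and 1 lower of 8 over IgG and 6 higher and 0 lower over input, beside 26.4% higher and 37.6% lower, and 32% and 40.3%, of all tested genes.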

How the data were processed

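The authors trimmed reads with Trim Galore 0.6.7, mapped them to mm10 with STAR 2.7.10a, counted uniquely mapped reads per gene with featureCounts 2.0.2 and deposited the counts without normalization, with the exon length of each gene. The strand setting is not given in the sources used here. Groups came from the sample titles, and columns named ac were taken as the libraries titled IP of the same number. Of 55401 identifiers, 55141 were named through GENCODE vM21.

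Counts were tested with edgeR 4.0.16 in R 4.3.3 (filterByExpr by group, TMM, quasi-likelihood test with 1 mean per group over 9 libraries, Benjamini-Hochberg over 22510 genes). The filter required 0.537 CPM in at least 3 libraries. FPKM was computed from the deposited counts and lengths. Correlations used log2 CPM with a prior count of 2, and ratios to Acta2 were tested on the log2 scale with 0.5 added to each count. The fit was tested on simulated data. Alternatives were other normalizations and filters, DESeq2 1.42.0, fits of 6 libraries, a replicate block, a test against a 2-fold change, halved counts, and each library left out.

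The members and lists were chosen with earlier results of these data known. All 8 genes and tested paralogs are named, with the 2 most abundant genes in input of every other list, except 1 gene that is not reported here, and the 5 genes most like Acta2 or the mean. Columns of per-sample values not used numbered 0. Peaks were not analysed here.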

Additional observations from a re-analysis of the deposited data

How the results depend on the processing

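Of 452 values of single genes under other settings, 423 kept their side of the threshold and none that passed changed direction, while 13 of the other 29 were lost in the test against a 2-fold change. In that test Des over input had an adjusted p of 0.0511, while Tpm2 over input (0.00958) and Tagln still passed. Tagln was in the test only through its acRIP libraries, so its passing is a description. With at least 10 counts required in every library, Tagln was not tested, so 0 genes were called higher over IgG and the median in IgG over input was 0.49. That median was 0.30 with upper quartile normalization, where the median of all tested genes was -0.11. The number of genes called higher in IgG over input ranged from 0 to 2 with 1 library left out (2 without input replicate 2, and 1 without input replicate 1, IgG replicate 1 or IgG replicate 3). Deviations of same-numbered libraries from their group means had correlations from -0.007 to 0.035, and those of other pairs from -0.029 to 0.027. Whether the numbers pair the samples cannot be told from this, since counting noise alone can keep such values low. With the replicate number as a block, Des over IgG passed with an adjusted p of 0.0436, and it also passed with upper quartile normalization (0.0451), no filter (0.0414), only the 6 libraries compared (0.048), halved counts (0.0462), or without input replicate 3 (0.0494), IgG replicate 2 (0.0214) or acRIP replicate 3 (0.0163). FPKM over TMM-scaled sizes moved levels by -2.73% to 4.11%. Low counts limit Tagln, Des and Cnn1 most.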

Other observations

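Marker genes of other testis cells were counted in acRIP over IgG, where 26.4% of all tested genes passed higher and 37.6% lower. Of 10 endothelial genes, 5 passed higher and 2 lower, and the most abundant in input were the junction gene Cldn5 (-0.07 on the log2 scale, edgeR adjusted p 0.62) and Egfl7 (-2.39, adjusted p 8.69e-11). Of 8 Leydig cell genes, 2 passed higher and 1 lower, with 0.10 for the hormone gene Insl3 (adjusted p 0.147) and -0.36 for the steroid hydroxylase gene Cyp17a1 (adjusted p 3.36e-09). Of 10 tested Sertoli cell genes, 4 passed higher and 5 lower, with -0.20 for Clu (adjusted p 1.18e-05) and 0.16 for Amhr2 (adjusted p 0.00587). Of 8 macrophage genes, 2 passed higher and 4 lower, with 0.11 for Lyz2 (adjusted p 0.173) and 0.26 for C1qb (adjusted p 0.0977). Of 8 germ cell genes, 5 passed higher and 3 lower, with 0.11 for the protamine gene Prm1 (adjusted p 0.0479) and -0.11 for Prm2 (adjusted p 0.000104).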
